A study of Mus musculus with 4 samples.

Results

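The platelet-derived growth factor (PDGF) genes examined here were the 4 ligands Pdgfa, Pdgfb, Pdgfc and Pdgfd and the 2 receptors Pdgfra and Pdgfrb, 6 of the 32285 genes in the count files, chosen by symbol. Fresh frozen brain from Nf1+/- mice, which are heterozygous for the neurofibromatosis gene, was embedded in OCT, cut at 10 µm and profiled as 4 sections on Visium slides, where each barcoded spot captures mRNA from the cells above it. All 4 sections carried the same genotype, no wild-type section was used here, and the labels give neither the age of the mice nor whether the sections came from separate mice. The p-values therefore measure only the spread between these 4 sections, which may be technical.

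PDGF ligands are secreted dimers that bind receptor tyrosine kinases on neighbouring cells. PDGF-AA and PDGF-CC signal mainly through PDGFRα and PDGF-DD mainly through PDGFRβ, whereas PDGF-BB engages both, and PDGF-C and PDGF-D must be cut by proteases before they are active. In the brain, Pdgfra is the usual marker of oligodendrocyte precursor cells (OPCs) but is also made by fibroblasts of the meninges and of large vessels, and Pdgfrb marks the mural cells of vessels.

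The data were counts of unique molecular identifiers (UMIs), each standing for 1 captured mRNA molecule, and levels are given as UMIs per 1000000 UMIs of a section or of a class of spots (CPM). Spots with at least 500 UMIs were used, which left 1431 to 2358 spots per section and 7620 in all, from 19261710 to 37002379 deposited UMIs per section. Section 3 was the shallowest, with a median of 8862.5 UMIs per spot against 12232 to 15296.5 in the other sections. Sections 1 and 4 held 189 and 76 spots with at least 3 of 10 choroid plexus markers, whereas sections 2 and 3 held 4 and 7.

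Whole-section levels were low, and those of both receptors, Pdgfb and Pdgfc differed between some sections by more than their counting intervals. Pdgfra was at 28.0, 28.0, 23.9 and 34.7 CPM in sections 1 to 4, from 526 to 1036 UMIs, with a mean of 28.7 ± 4.49 (SD, n = 4). Pdgfrb was at 6.31, 9.27, 6.63 and 7.42 CPM, with a mean of 7.41 ± 1.33 from 143 to 343 UMIs. Section 4 was thus highest for the first receptor and section 2 for the second.

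Among the ligands, Pdgfa was at 30.5, 26.7, 28.1 and 29.7 CPM (mean 28.8 ± 1.70, n = 4), the narrowest relative spread of the 6 genes. Pdgfb was at 12.1, 14.9, 17.5 and 13.3 CPM (mean 14.5 ± 2.33), and Pdgfc at 8.09, 6.59, 7.09 and 5.61 CPM (mean 6.85 ± 1.04). Pdgfd was sparse, with 45, 78, 42 and 30 UMIs in the 4 sections, equal to 1.92, 2.11, 1.91 and 1.56 CPM. These levels compare sections and spots for 1 gene at a time, and no order between genes was read from them.

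**Figure D1:**
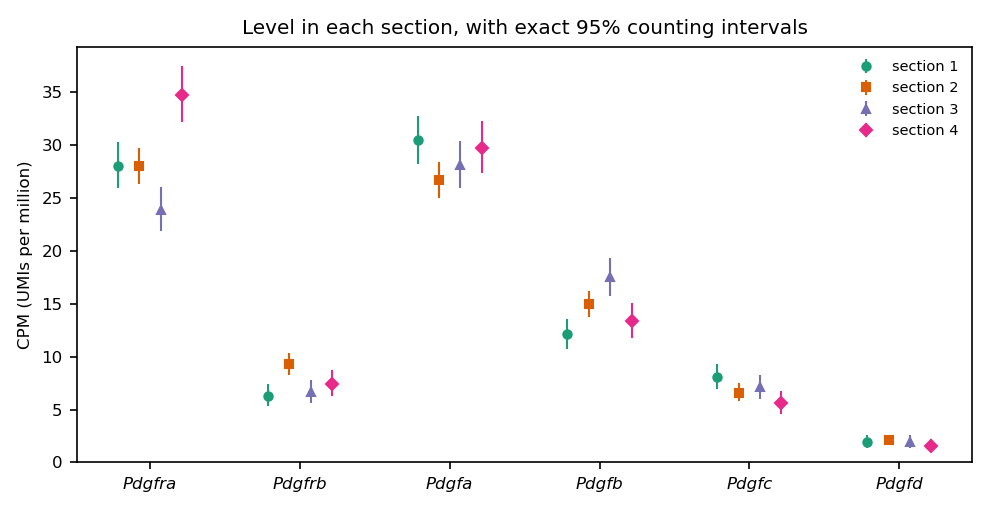
Level of each PDGF receptor and ligand (x axis) in CPM (y axis) in each of the 4 Nf1+/- sections, with exact 95% Poisson intervals that cover counting error only. Pdgfra lay between 23.9 and 34.7 CPM and Pdgfd between 1.56 and 2.11 CPM.

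To place the receptors, the spots of each section were ranked by their excess of UMIs over the number expected from their total, once for 3 OPC markers (Cspg4, the NG2 proteoglycan, C1ql1 and Neu4) and once for 3 fibroblast markers (the collagen genes Col1a1 and Col1a2, and the proteoglycan gene Dcn). The top 10% by each score were called OPC-marker spots and fibroblast-marker spots. Leaving out the 24, 26, 27 and 14 spots that were in both sets, each set held 130, 210, 202 and 129 spots in sections 1 to 4, and 1253, 1912, 1863 and 1159 spots were in neither. The median depth in sections 1 to 4 was 13810.5, 14358.5, 6802.5 and 10394 UMIs per spot in OPC-marker spots. It was 11108.5, 11555, 9063.5 and 10390 in fibroblast-marker spots and 15408, 15801, 9015 and 12660 in neither. Marker spots were thus shallower than neither within each section, except fibroblast-marker spots in section 3. A single marker UMI exceeds the expected number by more in a shallow spot, so depth and the ranking are linked. A spot can hold several cells, so these are classes of spots and not cell types, and more cells of a type cannot be told apart from more RNA per cell.

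Other markers were used to check both classes. Among 4 further OPC genes, Matn4 (log2 fold change 1.38) and Lhfpl3 (0.74) rose in OPC-marker spots against spots in neither set, whereas Pcdh15 (0.59) and Cacng4 (0.36) did not pass the test. Of 5 further fibroblast genes, 4 were tested and all 4 rose in fibroblast-marker spots, namely Lum (3.26), Slc6a13 (3.08), Igf2 (2.93) and Ogn (2.90). The fibroblast set was nevertheless loose, since 31.4% to 70.3% of its spots per section, those also in the OPC set included, held a single UMI of its 3 markers, against 11.7% to 45.9% for the OPC set.

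Neither class was pure. In OPC-marker spots, 6 of 6 mature oligodendrocyte markers (median log2 fold change 0.50) and 3 of 3 tested markers of newly formed oligodendrocytes (1.10) also rose, with summed levels of 2690 to 5511 CPM for the first list against 2280 to 3539 CPM in spots in neither set. In fibroblast-marker spots, 10 of 10 choroid plexus markers (median 2.52), 4 of 4 smooth muscle markers (3.11), 4 of 5 tested pericyte markers (0.97), 6 of 6 endothelial markers (0.59), 4 of 4 astrocyte markers (0.47) and 4 of 5 microglia markers (0.41) rose. The 4 further OPC genes summed to 50.0 to 59.8 CPM in fibroblast-marker spots and to 51.5 to 64.5 CPM in spots in neither set, ranges that overlap, and edgeR called 0 of the 4 between those classes (1 at an unadjusted p under 0.05, 0 by DESeq2). Both classes lacked the spots of the OPC set by construction. With both-set spots kept, 1 of the 3 OPC markers was higher in the fibroblast set than in all other spots (median log2 fold change 0.17). The choroid plexus difference lay in sections 1 and 4, where those markers summed to 593 and 420 CPM in fibroblast-marker spots. Spots in neither set had 126 and 47.8 CPM there. In sections 2 and 3 the sums were 17.3 and 18.2 CPM, against 15.9 and 20.4 CPM in neither. The part of these other cells in the receptor levels below was not tested except where a value is given.

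Pdgfra was highest in OPC-marker spots and intermediate in fibroblast-marker spots. It stood at 56.2, 53.8, 54.9 and 76.0 CPM in the OPC-marker spots of sections 1 to 4 (mean 60.2 ± 10.6, 463 UMIs in all). In fibroblast-marker spots it stood at 30.6, 41.2, 36.9 and 33.8 CPM (mean 35.6 ± 4.50, 284 UMIs), and in spots in neither set at 25.3, 24.1, 19.0 and 30.7 CPM (mean 24.7 ± 4.79, 2087 UMIs). Every OPC-marker value exceeded every value of the other 2 classes, while the fibroblast-marker and neither ranges met at about 30.6 CPM, the former being higher within each of the 4 sections.

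By edgeR's quasi-likelihood test, blocked on section and with p-values adjusted by Benjamini-Hochberg for 11896 genes, Pdgfra was 2.42-fold higher in OPC-marker spots than in spots in neither set (log2 fold change 1.27, SE 0.10, adjusted p = 6.99e-09, higher in 4 of 4 sections). It was the single member called of 5 tested, in a comparison that called 3.04% of all genes. Against fibroblast-marker spots, Pdgfra was 1.56-fold higher in OPC-marker spots (log2 fold change 0.64, SE 0.13, adjusted p = 0.00244, higher in 4 of 4 sections). Here too it was the single member called, against 3.85% of all genes. This last difference depended on how spots were chosen. Its log2 fold change was 0.24 (adjusted p = 0.574) when spots needed UMIs of at least 2 of the 3 markers. In that setting fibroblast-only spots held only 22, 65, 26 and 9 Pdgfra UMIs in sections 1 to 4. They stood at 41.7, 40.8, 70.4 and 27.7 CPM, against 52.9, 48.2, 67.9 and 61.4 CPM in OPC-only spots. The log2 fold change was 0.16 (adjusted p = 0.439) when the further OPC and fibroblast genes replaced the markers. The difference from spots in neither set was 1.20 (adjusted p = 2.38e-08) after the 20% of spots richest in mature oligodendrocyte markers had been left out. That setting did not select on markers of newly formed oligodendrocytes, and the part of oligodendrocytes in the difference was not tested.

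Fibroblast-marker spots also had more Pdgfra than spots in neither set, by 1.55-fold (log2 fold change 0.63, SE 0.12, adjusted p = 0.000349). Pdgfra and Pdgfrb were the 2 members called of 5 tested there, in a comparison that called 15.7% of all genes. The Pdgfra difference was 0.60 (adjusted p = 0.000693) without the choroid plexus-marker spots and 0.64 (adjusted p = 0.000214) with the further fibroblast genes as markers, and without the section block it missed the threshold (0.59, adjusted p = 0.0600). Without the choroid plexus-marker spots, fibroblast-marker spots of sections 1 to 4 stood at 26.1, 41.3, 36.9 and 33.3 CPM. Spots in neither set then stood at 24.6, 24.0, 19.1 and 30.0 CPM. The gap was thus small in sections 1 and 4, which held most of the spots left out.

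**Figure D2:**
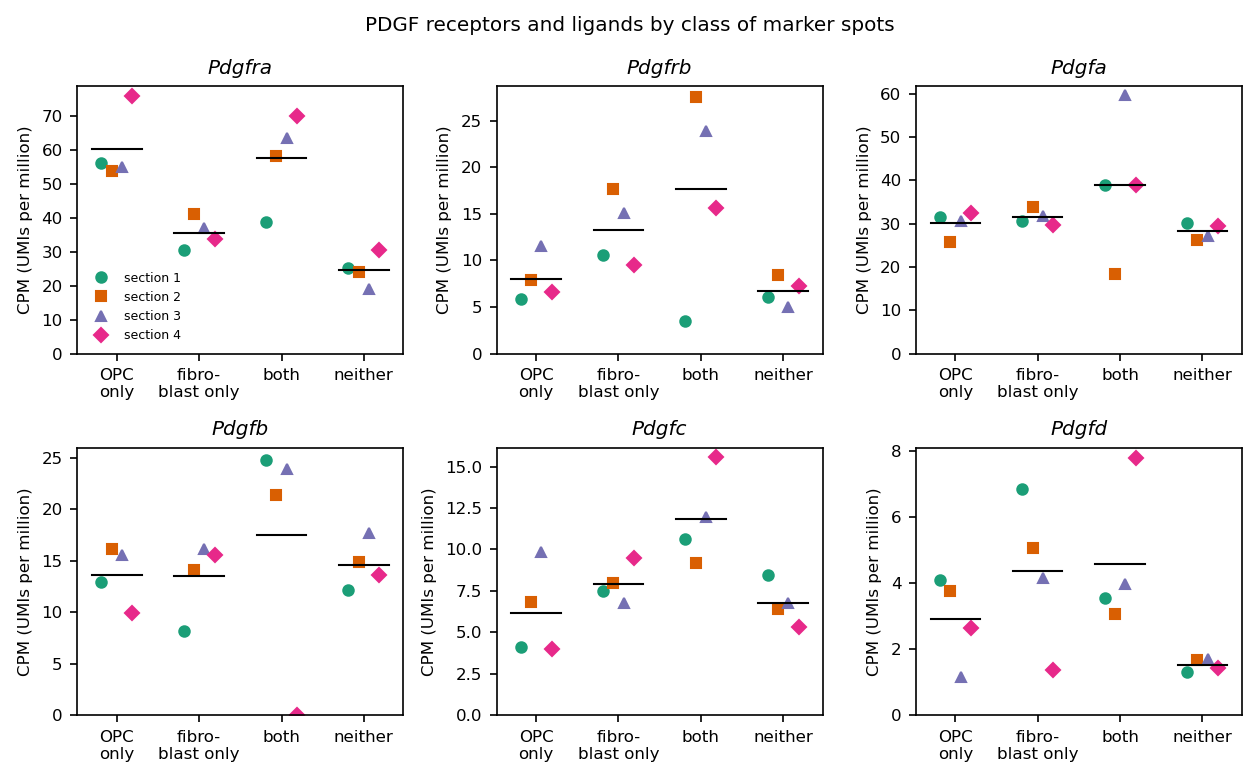
Level in CPM (y axes, each from 0) of the 6 PDGF genes in OPC-marker spots only, fibroblast-marker spots only, spots in both sets and spots in neither set (x axes); points are the 4 sections and lines their means. Mean Pdgfra was 60.2 CPM in OPC-marker spots, 35.6 CPM in fibroblast-marker spots and 24.7 CPM in neither, and Pdgfb had no UMI in the 14 both-set spots of section 4.

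Most Pdgfra UMIs nevertheless lay outside both sets. OPC-marker spots held 14.6%, 15.2%, 18.1% and 17.2% of the Pdgfra UMIs of sections 1 to 4 (mean 16.2% ± 1.65), beside 7.72% of all UMIs. The fibroblast-marker spots held 7.45%, 11.0%, 13.5% and 7.47% (mean 9.86% ± 2.95), beside 7.68% of all UMIs, and spots in both sets 1.97% ± 0.741 beside 0.974%. The remaining 71.9% ± 4.69 was in spots in neither set, which held 83.6% of all UMIs. In each section the exact 95% interval of the OPC-marker share, for example 14.4% to 20.3% in section 4, lay above the share of all UMIs in those spots (7.28% to 7.89%). For fibroblast-marker spots this held in sections 2 and 3 only, as the intervals of sections 1 (5.56% to 9.73%) and 4 (5.60% to 9.73%) contained their UMI shares of 6.82% and 7.67%. These intervals cover counting error only.

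**Figure D3:**
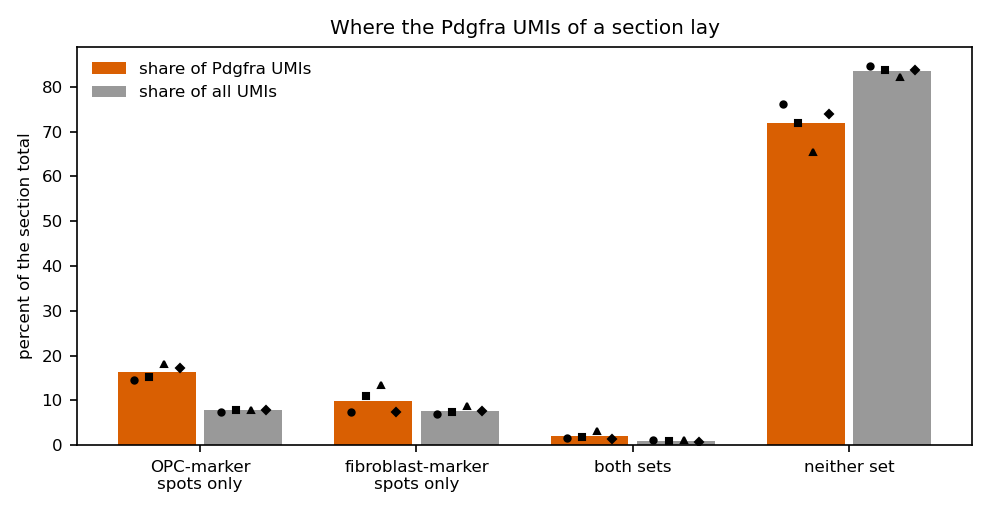
Mean share (y axis, percent) of a section's Pdgfra UMIs and of all its UMIs in each class of spots (x axis), with a marker for each of the 4 sections. OPC-marker spots held 16.2% of Pdgfra UMIs from 7.72% of all UMIs, and spots in neither set held 71.9% from 83.6%.

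Counting detected markers instead of ranking spots gave a similar order of mean Pdgfra levels, though not in each section. The counts are described without a test because the grid was added after the first results were seen. In the 4392 spots with no OPC and no fibroblast marker, Pdgfra averaged 22.9 ± 4.20 CPM over the 4 sections. With 2 or 3 OPC markers and no fibroblast marker it averaged 57.6 ± 10.6 CPM (396 spots, 356 UMIs). Spots without any detected fibroblast marker thus had the high level too, but markers this sparse can be present and not detected. With 2 or 3 fibroblast markers and no OPC marker the mean was 40.0 ± 19.5 CPM (137 spots, 68 UMIs).

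That last value rested largely on section 3, at 69.0 CPM, the other sections standing at 27.0 to 32.7 CPM. The lowest, section 4, was not above its spots with no marker of either set (28.0 CPM). Spots with a single OPC marker and no fibroblast marker were at 31.0 ± 5.61 CPM. Over all spots, Pdgfra went from 23.6 CPM with no OPC marker to 32.0, 54.9 and 86.1 CPM with 1, 2 and 3, and from 27.7 CPM with no fibroblast marker to 31.4, 45.9 and 50.7 CPM. The last of these rested on 23 UMIs, with section values from 0 to 83.0 CPM (SD 37.5). Spots with more UMIs detect more markers, and the part of depth in these steps was not tested.

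**Figure D4:**
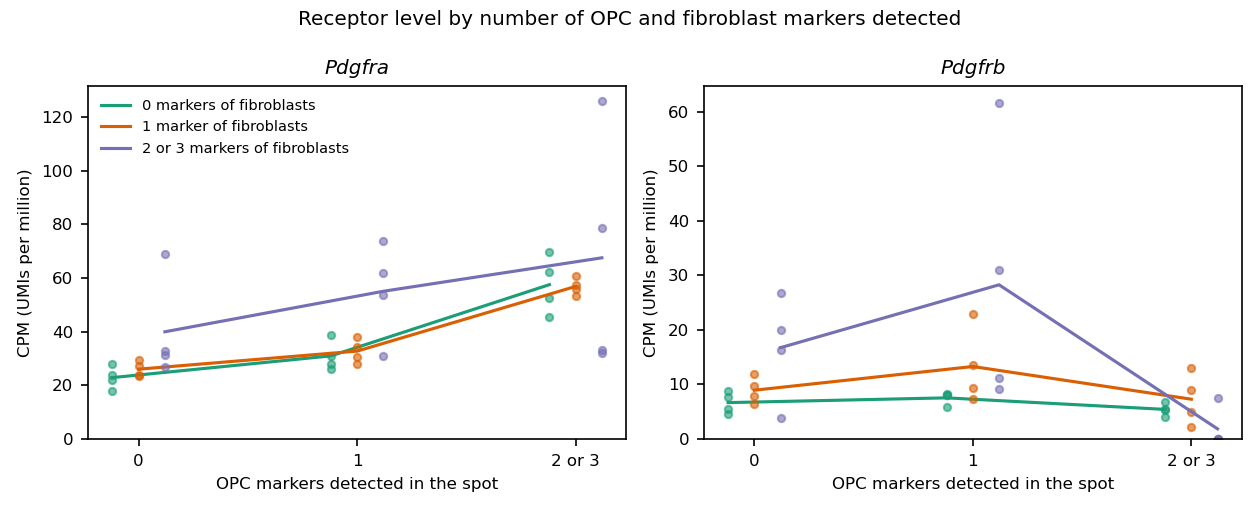
Pdgfra (left) and Pdgfrb (right) level in CPM (y axes) by the number of OPC markers detected in a spot (x axes), with a colour for the number of fibroblast markers; points are sections and lines their means. Pdgfra went from 22.9 to 57.6 CPM along the x axis in spots with no fibroblast marker, whereas Pdgfrb there lay between 5.44 and 7.55 CPM.

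Pdgfrb, the receptor of vessel mural cells, had another distribution. It stood at 10.6, 17.7, 15.1 and 9.47 CPM in fibroblast-marker spots of sections 1 to 4 and at 6.04, 8.46, 5.03 and 7.25 CPM in spots in neither set, with no overlap. The difference was 2.10-fold (log2 fold change 1.07, SE 0.20, adjusted p = 0.000432, higher in 4 of 4 sections). In OPC-marker spots it stood at 5.85, 7.88, 11.6 and 6.61 CPM, from 10 to 23 UMIs, and its log2 fold change over spots in neither set was 0.22 (SE 0.23, adjusted p = 0.752).

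Between OPC-marker and fibroblast-marker spots, the log2 fold change of Pdgfrb was -0.85 (SE 0.26, adjusted p = 0.0738, lower in OPC-marker spots in 4 of 4 sections), which missed the threshold. It was -1.91 (adjusted p = 7.88e-05) with spots chosen by at least 2 of 3 markers, -1.21 (adjusted p = 0.00222) with the further genes as markers and -1.01 (adjusted p = 0.0360) without section 3. By number of fibroblast markers, Pdgfrb went from 6.71 CPM with none to 9.80, 15.0 and 34.3 CPM with 1, 2 and 3, the last from 14 UMIs. By number of OPC markers it did not follow such an order, with 7.18, 8.86, 5.28 and 8.85 CPM.

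The ligands Pdgfa, Pdgfb and Pdgfc were not placed by either set. Pdgfa, the main ligand of PDGFRα, stood at 31.6, 25.7, 30.6 and 32.4 CPM in OPC-marker spots, at 30.6, 33.9, 31.7 and 29.8 CPM in fibroblast-marker spots and at 30.2, 26.2, 27.1 and 29.4 CPM in spots in neither set. Its log2 fold changes over spots in neither set were 0.08 (SE 0.10, adjusted p = 0.821) in OPC-marker spots and 0.24 (SE 0.10, adjusted p = 0.106) in fibroblast-marker spots. The latter was called when the sets were cut at the top 5% (0.40, adjusted p = 0.0410).

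For Pdgfb, whose product binds both receptors, the values were 12.9, 16.1, 15.6 and 9.92 CPM in OPC-marker spots, 8.12, 14.1, 16.1 and 15.6 CPM in fibroblast-marker spots and 12.2, 14.8, 17.7 and 13.6 CPM in neither. Log2 fold changes of -0.06 (SE 0.15) and -0.07 (SE 0.15) over neither left no direction, and adjusted p-values were 0.927 and 0.847. Pdgfc counts were smaller, with 6 to 20 UMIs per section in OPC-marker spots and 12 to 22 in fibroblast-marker spots, and its log2 fold changes over neither were -0.09 (SE 0.24, adjusted p = 0.931) and 0.28 (SE 0.23, adjusted p = 0.492). In fibroblast-marker spots, the standard error of Pdgfc leaves room for a rise over neither of the size seen for Pdgfra there.

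Pdgfd had too few UMIs for the filter on low counts in these 3-class comparisons, so it was tested from 2 sums per section, 1 set against all other spots. In fibroblast-marker spots, those in both sets included, it stood at 6.37, 4.84, 4.14 and 1.87 CPM, against 1.53, 1.86, 1.66 and 1.53 CPM elsewhere, so that every section was higher but section 4 only slightly. The first 4 values rested on 11, 14, 8 and 2 UMIs in fibroblast-only spots and 1 UMI in the both-set spots of each section. The log2 fold change was 1.41 (SE 0.32, adjusted p = 0.00411). In that comparison 3 of 6 members were called, with 16.4% of all genes. The OPC set gave 0.79 (SE 0.33, adjusted p = 0.210), and Pdgfra was the single member called there (log2 fold change 1.19), with 4.37% of all genes.

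In the small group of spots in both sets, 55 Pdgfra UMIs gave 38.9, 58.1, 63.7 and 70.1 CPM (mean 57.7 ± 13.4). The 37 Pdgfa UMIs there gave 18.4 to 59.7 CPM and the 18 Pdgfrb UMIs 3.54 to 27.5 CPM, spreads too wide to place these genes. No test was made on these spots.

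The same 1-set comparison was repeated for 10 other sets of markers, to see which other spots held ligands and receptors. Sets were scored apart, so a spot can be in several, and the reference of each set holds most spots of the section. Of the 12 sets, the pericyte markers gave the largest fold change of Pdgfrb. In pericyte-marker spots it stood at 22.2, 24.5, 17.5 and 26.1 CPM, against 4.65, 7.67, 5.44 and 5.54 CPM in the other spots, with no overlap and a 3.83-fold difference (log2 fold change 1.94, SE 0.15, adjusted p = 1.38e-11).

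Pdgfrb and Pdgfra were the 2 of 6 members called in pericyte-marker spots, in a comparison that called 8.82% of all genes. The Pdgfra value there was small (log2 fold change 0.28, adjusted p = 0.0495), and the call was lost in 9 of its 10 alternatives, for example without section 2 (0.18, adjusted p = 0.468). Fibroblast markers moved with this set, 3 of 3 being higher with a median log2 fold change of 2.24, and so did 1 of 3 OPC markers (median 0.13).

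Smooth muscle-marker spots had 3 of 6 members called, with 12.9% of all genes. Pdgfd there stood at 3.24, 5.29, 4.96 and 4.36 CPM, above all values of the other spots, which reached at most 1.81 CPM (log2 fold change 1.44, SE 0.30, adjusted p = 0.00205). Pdgfrb was higher by 1.06 (adjusted p = 0.000444) and Pdgfra by 0.38 (adjusted p = 0.0130). Without section 2 all 3 calls were lost, with log2 fold changes of 1.34 for Pdgfd, 0.73 for Pdgfrb and 0.28 for Pdgfra (adjusted p = 0.0517, 0.0688 and 0.197).

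Endothelial-marker spots likewise had Pdgfrb (log2 fold change 1.13, adjusted p = 5.84e-07), Pdgfd (1.06, adjusted p = 0.0243) and Pdgfra (0.36, adjusted p = 0.00447) called, 3 of 6 members with 8.88% of all genes. The Pdgfd call was lost without section 2 (0.98, adjusted p = 0.219) and without section 3 (0.80, adjusted p = 0.246). Pdgfb, the ligand that endothelial cells are known to make for pericytes, stood at 11.4, 16.6, 19.6 and 17.3 CPM in these spots and at 12.2, 14.8, 17.3 and 12.9 CPM in the others. Its log2 fold change of 0.19 (SE 0.13, adjusted p = 0.464) did not pass the test.

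In astrocyte-marker spots 3 of 6 members were called, with 21.2% of all genes. They were Pdgfd (log2 fold change 1.26, SE 0.31, adjusted p = 0.00437), Pdgfrb (0.89, adjusted p = 0.000508) and Pdgfra (0.52, adjusted p = 0.000523). Fibroblast markers, 3 of 3, were higher in the smooth muscle-marker, endothelial-marker and astrocyte-marker spots as well (median log2 fold changes 2.28, 1.66 and 1.74). Of the 3 OPC markers, 1 was higher in smooth muscle-marker and 1 in astrocyte-marker spots (medians 0.27 and 0.38), and 0 in endothelial-marker spots (0.09). In astrocyte-marker spots this marker was Cspg4 (0.63, adjusted p = 0.00508), and C1ql1 and Neu4 did not pass. The part of both marker sets in these calls was not tested.

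Pdgfa and Pdgfc were both higher in mature oligodendrocyte-marker spots. There Pdgfa stood at 57.4, 31.6, 60.5 and 66.8 CPM, against 28.9, 26.5, 26.6 and 28.5 CPM in the other spots, with section 2 the lowest but still above all 4 reference values. The log2 fold change was 0.95 (SE 0.16, adjusted p = 0.000470). Pdgfc stood at 13.8, 10.3, 21.2 and 15.5 CPM, against 7.76, 6.43, 6.42 and 5.26 CPM, again with no overlap (log2 fold change 1.20, SE 0.25, adjusted p = 0.00237). Whole sections held only 190, 244, 156 and 108 Pdgfc UMIs, of which these spots had a part.

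Pdgfra was the other member of the 3 of 6 called there (log2 fold change 0.72, adjusted p = 0.000756), with 24.2% of all genes called. The 3 OPC markers were also higher in these spots (median log2 fold change 1.14, 3 of 3 called). Pdgfb, at 8.42, 10.3, 11.1 and 12.4 CPM against 12.3, 15.1, 17.8 and 13.4 CPM, was lower within each section but did not pass the test (log2 fold change -0.46, SE 0.21, adjusted p = 0.132). Newly formed oligodendrocyte-marker spots had Pdgfra (0.63, adjusted p = 0.000116) and Pdgfa (0.46, adjusted p = 0.0204) called, 2 of 6 members with 13.8% of all genes. Pdgfa was higher there in 3 of 4 sections, section 2 being at 23.6 against 26.9 CPM, and the call was lost without section 1, 3 or 4 (adjusted p = 0.252, 0.153 and 0.0840). Pdgfc did not pass there (log2 fold change 0.59, adjusted p = 0.111, higher in 3 of 4 sections).

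The RefSeq upstream sequences of the receptor that marked OPC-marker spots and of the 2 ligands that were higher together in mature oligodendrocyte-marker spots are shown so that the genes can be seen as well as counted. Each is the 250 bases before an annotated start in GRCm38.p6, 5′ to 3′ on the gene's strand, the more upstream of the 2 windows listed for Pdgfa was taken, and the windows of Pdgfra and Pdgfa lie within the annotated span of their gene, which begins further upstream. Capitals mark the E-box, spelled CANNTG, the element that basic helix-loop-helix factors such as OLIG1 and OLIG2 bind.
Pdgfra (chr5:75152001-75152250, plus strand): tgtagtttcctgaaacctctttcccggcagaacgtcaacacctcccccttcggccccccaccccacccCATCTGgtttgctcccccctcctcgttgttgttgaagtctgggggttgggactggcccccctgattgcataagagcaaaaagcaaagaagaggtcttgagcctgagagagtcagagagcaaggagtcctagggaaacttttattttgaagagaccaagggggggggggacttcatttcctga
Pdgfa (chr5:138994945-138995194, minus strand): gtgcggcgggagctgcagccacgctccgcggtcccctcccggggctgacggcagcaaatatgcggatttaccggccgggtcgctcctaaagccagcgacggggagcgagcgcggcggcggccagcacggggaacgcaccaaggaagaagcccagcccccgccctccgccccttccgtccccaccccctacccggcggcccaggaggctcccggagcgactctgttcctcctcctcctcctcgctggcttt
Pdgfc (chr3:81036166-81036415, plus strand): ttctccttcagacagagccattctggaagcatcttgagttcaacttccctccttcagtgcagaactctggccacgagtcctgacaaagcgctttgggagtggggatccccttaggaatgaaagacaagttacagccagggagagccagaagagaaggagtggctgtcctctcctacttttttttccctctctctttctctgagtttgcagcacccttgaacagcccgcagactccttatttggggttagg

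The Pdgfra window held 1 E-box, 176 bases before the start, and the Pdgfa and Pdgfc windows held none. Of 32851 promoter windows of this length, 66.2% held at least 1 E-box, so a match is common. Searched on both strands, ACAAAG was in the Pdgfc window and in 16.5% of all windows, and ACAATG (10.7% of all) and TATAAA (12.4% of all) were in none of the 3 printed. The GC content was 54.4% for Pdgfra, 72.4% for Pdgfa and 50.8% for Pdgfc. A match is a description of letters and does not show that a factor binds there.

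Of the 3 neuronal sets, Pdgfb was called in 1. In spots rich in Slc17a7-type neuron markers (Slc17a7, the vesicular glutamate transporter of cortical excitatory neurons, with Neurod6 and Nrn1 among the others), Pdgfb stood at 20.3, 23.4, 22.4 and 17.1 CPM, against 10.7, 13.6, 16.5 and 12.7 CPM, with no overlap. The log2 fold change was 0.60 (SE 0.11, adjusted p = 0.000368, higher in 4 of 4 sections). Pdgfra was lower in these spots (log2 fold change -0.48, SE 0.10, adjusted p = 0.000661), at 17.7, 21.6, 18.7 and 31.5 CPM against 29.8, 29.0, 24.9 and 35.3 CPM. These were the 2 of 6 members called, in a comparison that called 34.3% of all genes, the largest share of the 12 sets, and 3 of 3 OPC markers (median -0.59) and 3 of 3 fibroblast markers (median -1.30) were lower too.

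GABAergic neuron-marker spots had less Pdgfrb (log2 fold change -0.57, SE 0.17, adjusted p = 0.0463), the single member of 6 called, with 12% of all genes. That call was lost when any 1 section was left out (adjusted p = 0.0676 to 0.184). No member was called in microglia-marker spots, where edgeR called 9.37% of all genes, or in Slc17a6-type neuron-marker spots (Slc17a6, Tcf7l2 and Prkcd), where it called 13.1%. In each of those 2 comparisons the unadjusted p was under 0.05 for 1 of the 6 members, and DESeq2 called 0.

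**Figure D5:**
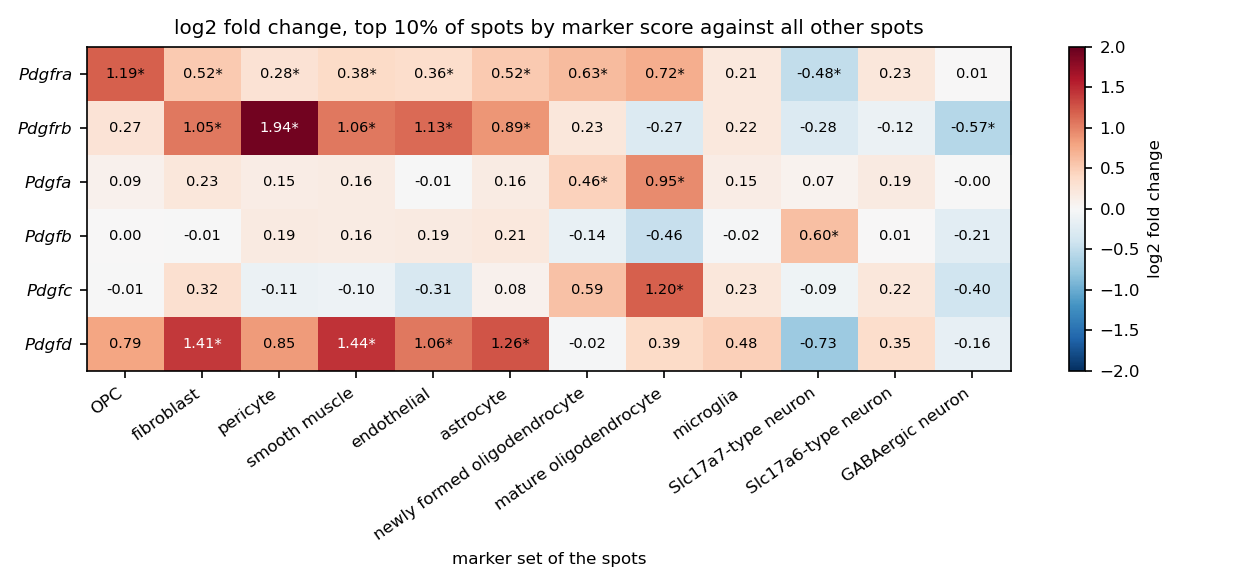
Log2 fold change of each PDGF gene (rows) in the top 10% of spots by each of 12 marker sets against all other spots (columns); an asterisk marks an adjusted p under 0.05. Pdgfrb was highest in pericyte-marker spots (1.94), Pdgfa and Pdgfc in mature oligodendrocyte-marker spots (0.95 and 1.20), and Pdgfb was called in the Slc17a7-type set alone (0.60).

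Genes that varied with each member from spot to spot were listed by Pearson's r within a section, averaged over 4 sections, among 13753 genes. The correlated values were each gene's excess of UMIs over the number expected from the spot's total, over the square root of that number. All r were small, single spots held few UMIs of these genes, and points of a section share a library and a depth. Closest to Pdgfra were Olig1 (mean r = 0.17), Cspg4 (0.13), C1ql1 (0.12), Apoe (0.12) and Olig2 (0.12), of which Olig1 and Olig2 encode transcription factors of the oligodendrocyte lineage and were in none of the marker sets. By edgeR, Olig1 and Olig2 were also higher in OPC-marker than in neither spots (log2 fold changes 0.89 and 1.00, adjusted p = 1.43e-09 and 2.94e-06). In fibroblast-marker spots Olig1 was called too, at a smaller 0.21 (adjusted p = 0.0456), and Olig2 was not (-0.04, adjusted p = 0.896). Apoe went the other way, with 0.72 in fibroblast-marker spots (adjusted p = 1.57e-10) and 0.24 in OPC-marker spots (adjusted p = 0.0117). These genes were picked from the same spots, so their fold changes are no separate support.

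The nearest genes of Pdgfrb were Vtn (0.18), Mgp (0.13), Rgs5 (0.12), Ifitm3 (0.12) and Apod (0.12), of which Vtn and Rgs5 were in the pericyte set. Near Pdgfa were Trf, Fth1, Mal and Bin1 (0.09 to 0.11), where Mal encodes a myelin protein, and near Pdgfc were Sema4d, Cnp, Mobp and Cldn11 (0.07 to 0.08). Pdgfb had Cck, Basp1, Slc17a7, Olfm1 and Dnm1 (0.09 to 0.11). For Pdgfd they were Lum, Apoe, Igf2, Igfbp2 and Clu (0.10 to 0.11), with Lum and Igf2 among the further fibroblast genes. Between 2 members of the PDGF family, the mean r lay from -0.011 to 0.019, and r this close to 0 in sparse counts does not show whether a pair varied together.

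A list of 30 other genes of the pathway covered the proteases and co-receptors of the ligands and the adaptors, kinases and phosphatases that act on or below the receptors, and 26 of them were tested. In OPC-marker spots against neither, 1 rose and none fell, namely Gab1, an adaptor that links receptors to PI3K and SHP2 (log2 fold change 0.69, SE 0.12, adjusted p = 0.00123). That is 1 of 26, in a comparison that called 3.04% of all genes, so the list was called about as often as genes in general. The median of the 26 was -0.02, beside 0.01 over all genes. In fibroblast-marker spots 3 of 26 rose and none fell (median 0.06, beside 0.00 over all genes), where 15.7% of all genes were called, so this count too is no result about the list. The 3 were Plat, the tissue plasminogen activator that cleaves PDGF-C (0.56, adjusted p = 0.00615), Stat3 (0.33, adjusted p = 0.0312) and Lrp1, a co-receptor (0.27, adjusted p = 0.00248). Between OPC-marker and fibroblast-marker spots edgeR called 0 of the 26, with 4 at an unadjusted p under 0.05 and 0 called by DESeq2, and their median was -0.08.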

How the data were processed

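Spatial transcriptomics data of 4 Nf1+/- mouse brain sections were used. The authors ran Space Ranger 1.3.1 (per the file headers) against mm10 (per the submitters' processing notes), and the deposited values were raw UMI counts for each gene in each spot, not normalized. Precision is limited by the 30 to 1036 UMIs of a member per section, and intervals (exact, 95%) cover counting error only. Any 2 sections differed by more than sampling noise (chi-square of 13.7 to 51.8 per degree of freedom), so each counted once. They shared 427 to 1989 spot barcodes. No spot positions were used, so spots could not be related to their neighbours or to the regions of the study.

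Spots were scored for a marker set by the excess of its UMIs over the number that the spot's total predicts, in units of the square root of that prediction. UMIs were summed per section and class and tested with edgeR 4.0.16 in R 4.3.3 (TMM scaling, filterByExpr, and the quasi-likelihood F test blocked on section, with p-values adjusted by Benjamini-Hochberg for all genes tested and called under 0.05). Counts of genes called leave out the markers that define the classes. Standard errors were obtained from the log2 fold change and F, as the former over the root of the latter. Classes were paired because they were cut from 1 tissue section, and within sections their deviations from the class means correlated at r = 0.31 to 0.64. On simulated counts for the 3-class fit (11681 genes, 200 changed by a log2 fold change of 1), 185 changed and 11 unchanged genes were called, and for the pericyte set (14054 genes) 173 and 12, none in the wrong direction. The changed genes were drawn from all genes that passed the filter, with a spread set by the trend over genes. The recovery therefore does not give the power for the members, several of which had few UMIs or smaller changes.

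The members, marker sets and the pathway list were chosen with earlier results of these data known, so they are no independent support. Named genes were the 6 members, the markers, called pathway genes, and the 5 genes most like each member, some of which, like some markers, are not reported here. Alternatives were the top 5% or 20% of spots, at least 2 of 3 markers, the further (check) markers, leaving out choroid plexus-marker or oligodendrocyte-marker spots, each set against all other spots, all deposited spots, no filter on low counts, DESeq2 1.42.0, scaling by total UMIs, no section block, and leaving out 1 section at a time. The alternatives for Pdgfd were chosen after the data were seen. RefSeq upstream sequences (GRCm38.p6) were matched by symbol, and those of 4 of the 6 genes were used, Pdgfra, Pdgfa, Pdgfc and Pdgfd. Any window on chromosome 18, where Pdgfrb lies, was left out.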

Additional observations from a re-analysis of the deposited data

Results flagged for a closer look

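Among 90 groups of 4 sections examined (the 6 genes in whole sections, in 4 classes of spots and in the spots of 10 other marker sets), 5 held a section whose gap to the others was a large part of the whole range, and chance alone would give about 4.5. Pdgfra in OPC-marker spots was at 76.0 CPM in section 4, against 53.8 to 56.2 CPM in the other 3 sections. The counting interval of section 4 was 62.8 to 91.3 CPM, and spots in neither set also had their highest Pdgfra level, 30.7 CPM, in section 4. Without section 4 the log2 fold change between these classes was 1.26, beside 1.27 with all sections.

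Pdgfb had 0 UMIs in the 14 both-set spots of section 4, against 21.4 to 24.8 CPM in the other sections. With 128432 UMIs in those spots, a count of 0 allows up to 23.4 CPM (3 counts), a limit inside the range of the other sections. In microglia-marker spots, 3 members had 1 section apart, namely Pdgfa at 40.5 CPM (others 27.2 to 29.2), Pdgfc at 6.16 CPM (others 7.97 to 8.33) and Pdgfra at 25.9 CPM (others 33.4 to 34.1).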

How the results depend on the processing

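Of 549 values recomputed under the alternatives, 449 were counted as unchanged. Fold changes had to keep their direction and their side of the threshold. Levels and shares had to move by less than the spread between sections, and counts of genes called had to stay within a fixed fold of the main count. A mean over sections cannot move by that spread when 1 section is left out. For levels and shares, the values with 1 section left out were therefore bound to count as unchanged. They are included in the 449 but do not show stability. The Pdgfra rise in OPC-marker spots over neither passed the threshold in all 16 alternatives, with log2 fold changes from 0.80 to 1.45. The Pdgfra rise in fibroblast-marker spots over neither missed it with no replicate block (0.59). The difference between OPC-marker and fibroblast-marker spots missed it with no replicate block (0.68), at least 2 of 3 markers (0.24) and the check markers (0.16). For Pdgfrb, this last difference passed with the top 5% (-1.23), at least 2 of 3 markers (-1.91), the check markers (-1.21), without oligodendrocyte-marker spots (-0.97) and with no filter on low counts (-0.83), and it ranged from -1.01 to -0.61 when 1 section was left out, passing without section 3. The Pdgfa value in fibroblast-marker spots passed with the top 5% (0.40).

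Values that reversed were all of members that were not called. For Pdgfa in OPC-marker spots over neither this was the check markers (-0.18). For Pdgfb the OPC value turned with the top 5% (0.030), at least 2 of 3 markers (0.049), each set against all other spots (0.0048) and over sections left out (-0.16 to 0.014), and the fibroblast value with the top 5% (0.44), at least 2 of 3 markers (0.055), the check markers (0.20) and over sections left out (-0.15 to 0.0080). Its difference between the sets, 0.0041, turned with the top 5% (-0.41) and 20% (-0.032), at least 2 of 3 markers (-0.0067), the check markers (-0.24), without choroid plexus-marker (-0.0012) or oligodendrocyte-marker spots (-0.0051), with no replicate block (-0.015) and over sections left out (-0.11 to 0.16). Pdgfc in OPC-marker spots turned with the check markers (0.29) and without section 1 (0.15, range -0.34 to 0.15). Pdgfrb in OPC-marker spots turned with the top 20% (-0.059), at least 2 of 3 markers (-0.47), the check markers (-0.12) and without section 3 (-0.11, range -0.11 to 0.41).

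The count of genes called moved more than the members did. For OPC-marker spots over neither, 362 genes became 36 with the top 20%, 8 with at least 2 of 3 markers, 207 with the check markers, 115 without oligodendrocyte-marker spots, 631 with no filter, 8 with no replicate block, 625 with each set against all others and 146 to 429 with 1 section left out (146, 149 and 148 without sections 1, 3 and 4). For fibroblast-marker spots over neither, 1867 became 947 with the top 20%, 364 with no replicate block and 1111 to 1704 with 1 section left out (1111 without section 2). Between the sets, 458 became 252 with the top 20%, 921 with at least 2 of 3 markers, 1513 with the check markers, 818 with no filter, 134 with no replicate block and 260 to 473 with 1 section left out (260 without section 2). With total-UMI scaling, the split of higher and lower genes went from 1191 and 676 to 1023 and 1251 for fibroblast-marker spots and from 105 and 353 to 261 and 313 between the sets. The share of Pdgfra UMIs followed the size of the sets, at 9.76%, 5.40%, 0.793% and 84.0% in OPC-marker, fibroblast-marker, both and neither with the top 5% and at 23.8%, 14.8%, 7.01% and 54.4% with the top 20%, and the OPC share was 13.8% with the check markers. OPC-marker spots held 3.71% to 4.12%, 13.2% to 17.9% and 8.10% to 9.85% of all UMIs in these 3 settings. Fibroblast-marker spots held 3.55% to 3.84% with the top 5%. With the top 20% they held 16.7%, 15.3%, 10.6% and 13.9% of all UMIs in sections 1 to 4. Their Pdgfra shares were 16.3%, 15.6%, 15.2% and 12.1%, below the UMI share in sections 1 and 4. In section 3 this set took 377 fibroblast-only and 82 both-set spots, although 207, 34 and 5 spots held 1, 2 and 3 fibroblast markers. In section 4 it took 228 and 58, although 180, 25 and 1 spots did. It thus included spots with no UMI of its markers. The top 20% values of fibroblast-marker spots, gene counts included, are therefore not those of marker-bearing spots alone.

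In the other sets, no replicate block also ended 8 calls, those of Pdgfra in pericyte-marker, smooth muscle-marker, endothelial-marker, astrocyte-marker and Slc17a7-type spots, Pdgfa in newly formed oligodendrocyte-marker spots, Pdgfd in endothelial-marker spots and Pdgfrb in GABAergic spots. DESeq2 ended 6 of the 8, not those in astrocyte-marker and Slc17a7-type spots. The cause of these changes was not tested. Pdgfc had no value with the top 5%, where it was below the filter, and DESeq2 gave no adjusted p for Pdgfc in OPC-marker spots over neither or for Pdgfd in the OPC set. Counts of 30 to 78 UMIs per section limit what can be said of Pdgfd, and spots of 1 marker UMI limit the fibroblast set.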
